A study of Homo sapiens with 10 samples.

Results

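The 60 genes described here were high in NKX2-1GFP+ cells of human ESC-derived thyroid organoids on days 23 and 31 and lower before and after, on days 16, 38 and 45. They were chosen by their CPM, a gene's counts per 1000000 counts of its library. The lowest of the 4 libraries of days 23 and 31 had to reach 5 CPM and at least 2 times the highest of the 6 libraries of days 16, 38 and 45. This rule found 60 of 28265 genes in the counts (0.212%), and 0.523% of the 11464 genes that reach 5 CPM in all 4 libraries of days 23 and 31. Because these same values selected the genes, the rise into days 23 and 31 and the fall after them are given as a description, with no test. Tests of the 60 genes are kept to comparisons the rule did not make. These are day 31 against day 23, and days 38 and 45 against day 16. None of them is free of the rule. It set a lower limit on the 4 libraries of days 23 and 31 and an upper limit on the 6 libraries of the other days.

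The cells came from an established human ESC line, ESIBIe003-A-6, which carries GFP at 1 allele of NKX2-1, a transcription factor of thyroid, lung and forebrain. All libraries share this reporter, doxycycline-inducible transgenes of NKX2-1 and of PAX8, another thyroid transcription factor, and an earlier treatment with activin A to form endoderm. By the study's methods, cells were given doxycycline to induce the transgenes and then stayed in basal medium up to day 16. They were next given 8-br-cAMP, a cell-permeable analogue of cAMP, and were moved to medium with hrTSH, a recombinant human TSH, and dexamethasone, a glucocorticoid. SB431542, an inhibitor of TGFβ receptor kinases, was added after that. The 2 libraries of day 16, 2 of day 23 and 2 of day 31 are labelled cAMP, the 2 of day 38 TSH and DEX, and the 2 of day 45 TSH and SB. The schedule differs from the labels in that day 16 precedes the cAMP, the medium was already changed the day before day 31, and day 45 cells also had dexamethasone. Time and medium changed together, so their effects cannot be told apart here, and cells kept on cAMP to days 38 and 45 were not analysed here. Each replicate pooled several wells of 1 line. The sort was on GFP. Reads from the coding part of the transgenes cannot be told apart from those of the endogenous genes.

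Cyclic AMP is a messenger through which TSH acts in thyroid cells, though by the study the TSH receptor controls more than this pathway. TSH binds its receptor, a G protein raises adenylyl cyclase activity, and cAMP activates protein kinase A, which phosphorylates CREB. CREB binds the CRE, a short DNA motif with the palindrome TGACGTCA, and the somatostatin gene SST holds one of the best known examples.

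Each library held 7247268 to 10333933 counts, so a floor of 3 counts stood at 0.290 to 0.414 CPM, which covers counting error only. The 60 genes took 0.290% and 0.288% of all counts on day 16, 0.944% and 0.895% on day 23, 0.979% and 0.958% on day 31, 0.183% and 0.197% on day 38, and 0.149% and 0.150% on day 45. The abundant noncoding RNA RN7SK moved with the window, with 2.92 to 4.42% of counts on days 23 and 31 and 5.14 to 8.17% on the other days. With RN7SK left out of the totals, 53 genes passed the rule, all of them among the 60. Scaling the totals by edgeR's TMM factors kept 39 of the 60. The sorted cells held NKX2-1 at 55.2 to 167 CPM and PAX8 at 448 to 760 CPM in every library, while TG, the thyroglobulin gene, went from 11.1 and 11.6 CPM on day 16 to 7569 and 7183 CPM on day 45. In bulk libraries, fewer cells that express a gene and less RNA of it per cell cannot be told apart.

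Among promoters of 52 of the 60 genes in the RefSeq table (250 bases before to 50 after the start), those of SST and VGF held the palindrome TGACGTCA. These 250 bases before each start are shown because they carry that motif, in capitals. They are read from RefSeq on GRCh38.p14, both on the minus strand, for SST at chr3:187670395-187670644 with the motif 47 to 40 bases before the start, and for VGF at chr7:101165570-101165819 with it 79 to 72 bases before.
SST: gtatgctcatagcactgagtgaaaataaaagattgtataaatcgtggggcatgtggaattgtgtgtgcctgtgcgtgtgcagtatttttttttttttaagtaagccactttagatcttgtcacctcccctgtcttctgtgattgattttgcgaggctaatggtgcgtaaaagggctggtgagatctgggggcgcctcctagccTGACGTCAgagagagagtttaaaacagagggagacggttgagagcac
VGF: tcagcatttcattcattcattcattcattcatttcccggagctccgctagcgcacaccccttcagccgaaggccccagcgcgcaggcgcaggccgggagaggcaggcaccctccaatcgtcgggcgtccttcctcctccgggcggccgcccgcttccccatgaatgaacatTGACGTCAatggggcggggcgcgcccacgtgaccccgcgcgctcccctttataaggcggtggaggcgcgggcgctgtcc
The 2 genes are 3.85% of the 52, beside 3.996% of the 9083 genes with a promoter that reach 5 CPM on days 23 and 31, and 2.25% of all 27305 genes in the table. The shorter TGACG, which the palindrome contains, stood on either strand in 16 of the 52 (30.8%), beside 41.2% and 28.4%. A match describes the letters of this window only and says nothing of binding.

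A microRNA gene, MIR31, is also among the 60, and its mature RNA is shown with the seed, bases 2 to 8, in capitals. It lies at chr9:21512158-21512178 on the minus strand (RefSeq, GRCh38.p14).
hsa-miR-31-5p: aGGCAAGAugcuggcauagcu
MIR31 lies in the span of its host gene MIR31HG (chr9:21454268-21559798), as does IFNE, the interferon epsilon gene (chr9:21480839-21482313). All 3 are on the minus strand and all 3 are among the 60. MIR31HG had 8.34 and 6.11 CPM on day 16, 32.2 and 24.5 on day 23, 42.6 and 25.0 on day 31, 10.5 and 8.55 on day 38, and 8.97 and 7.19 on day 45. In the same order MIR31 had 2.25 and 1.83, 9.64 and 11.1, 15.8 and 16.1, 3.87 and 4.28, and 1.66 and 1.46 CPM. These libraries do not select small RNAs, so a count at MIR31 cannot be told apart from reads of the host transcript.

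The smallest ratios of the lowest window library to the highest outside one were 2.03 for JCHAIN, 2.04 for SEC14L6 and 2.04 for CYSLTR2, and CD226, NBEAL2 and EIF4E3 stood just outside at 1.96 each. The median ratio was 2.32, the highest 18.1. Ratios reached 3 in 13 genes and stayed under 2.5 in 37. Mean CPM over the 4 window libraries ran from 6.82 to 1625 with a median of 36.7, and 21 genes reached 100 CPM. The netrin receptor gene UNC5C and SST together held 28.5% of the CPM of all 60. CPM is not scaled by transcript length, so these shares describe reads and not molecules.

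Outside the window most of the genes were low rather than silent. The median gene kept 23.3% of its window mean on day 16 (range 0 to 45.3%), 15.9% on day 38 (0.279 to 41.8%) and 14.1% on day 45 (0 to 40.0%). At 3 counts or fewer in both libraries were 4 genes on day 16, 2 on day 38 and 2 on day 45. The highest outside library was one of day 16 for 31 genes, of day 38 for 16 and of day 45 for 13. By role, the median share left on day 45 was lowest for secreted ligands and hormone precursors, at 9.58% after 25.9% on day 16. Enzymes and lumenal or plasma proteins stood close to them, at 9.96% after 23.5%. It was highest for signalling and cytoplasmic proteins, at 18.1% after 21.7%.

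**Figure D1:**
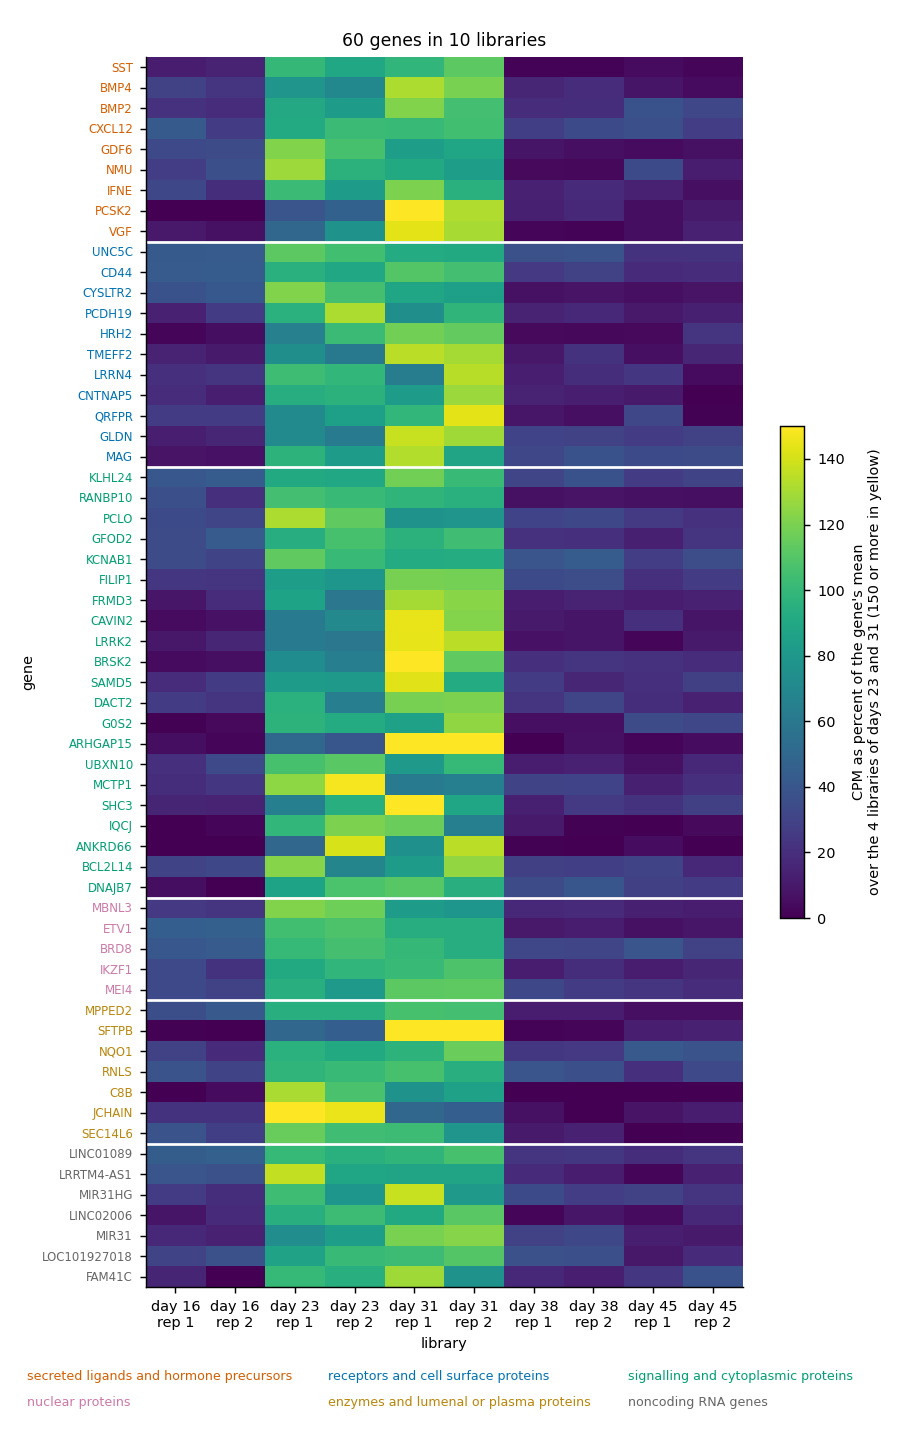
CPM of the 60 genes (rows, coloured and ordered by role, then by window mean) in each of the 10 libraries (columns), as percent of the gene's mean over the 4 libraries of days 23 and 31. The 4 middle columns are bright by selection, and the shade left outside them differs between genes, from 0 to 45.3% of the window mean as a mean of day 16.

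Secreted ligands and hormone precursors, with the enzyme PCSK2 counted among them, made up 9 of the 60. SST, the precursor of the peptide hormone somatostatin, had 126 and 152 CPM on day 16, 1069 and 957 on day 23, 1054 and 1197 on day 31, 18.5 and 13.6 on day 38, and 45.4 and 22.8 on day 45. Its 2 days of the window overlapped, and both late days lay below day 16. The window mean was 66.7 times the day 38 mean and 7.69 times the day 16 mean. VGF, a neuropeptide precursor, had 2.25 and 1.47 CPM on day 16, 11.03 and 16.95 on day 23, 32.0 and 29.0 on day 31, 0.484 and 0.329 on day 38, and 1.24 and 3.02 on day 45. It was higher in both day 31 libraries than in both of day 23, but the change did not pass the test (log2 fold change 1.10, SE 0.46, adjusted p = 0.312 by edgeR).

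PCSK2, the prohormone convertase that cuts peptide precursors, had 0 counts in both day 16 libraries. It then had 11.8 and 14.1 CPM on day 23, 54.9 and 39.8 on day 31, 4.06 and 5.15 on day 38, and 1.66 and 3.23 on day 45. Its window mean was at least 79.0-fold higher than day 16, taking the mean floor of the 2 libraries. NMU, the precursor of neuromedin U, had 17.4 and 22.96 CPM on day 16, 81.1 and 60.9 on day 23, 57.6 and 53.2 on day 31, 2.23 and 1.86 on day 38, and 21.1 and 7.09 on day 45. Day 38 was its lowest day, and on day 45 one library lay within the range of day 16 and the other below it. Peptide precursors are also made by neuroendocrine cells, and the list of 13 neuroendocrine and C cell markers includes PCSK2. The other 12 summed to 32.98 and 23.8 CPM on day 16, 50.8 and 46.4 on day 23, 50.3 and 59.0 on day 31, 102 and 99.5 on day 38, and 77.0 and 71.5 on day 45, with CALCB the most counted. CHGA stayed at 3.35 CPM or less in each library, SYP at 1.63 or less and SCG5 at 0.138 or less. Of the 11 tested, 2 were called higher on day 23 than on day 16 (5.6% of all genes tested) and 2 higher on day 38 than on day 31 (8.8% of all genes tested), with 0 lower in both. The part of such cells in the peptide genes was not tested.

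3 ligands of the bone morphogenetic protein family were among the 60. BMP4 had 62.2 and 49.1 CPM on day 16, 169 and 150 on day 23, 284 and 258 on day 31, 34.9 and 41.3 on day 38, and 17.7 and 9.69 on day 45. BMP2 had 32.3 and 28.6 CPM on day 16, 135 and 124 on day 23, 182 and 157 on day 31, 28.4 and 29.7 on day 38, and 56.2 and 47.4 on day 45. GDF6 had 39.9 and 42.0, 147 and 129, 101 and 107, 9.97 and 7.46, and 5.52 and 8.03 CPM in the same order. BMP2 and BMP4 stood higher in both day 31 libraries than in both of day 23, and GDF6 lower. By edgeR, the changes of BMP2 (log2 fold change 0.36, adjusted p = 0.390) and GDF6 (-0.43, adjusted p = 0.385) did not pass the test. The remaining ligands were IFNE, at 26.1 to 38.1 CPM in the window and 1.98 to 10.3 CPM outside it, and CXCL12, a chemokine, at 116 to 132 CPM in the window and 33.6 to 53.5 CPM outside.

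**Figure D2:**
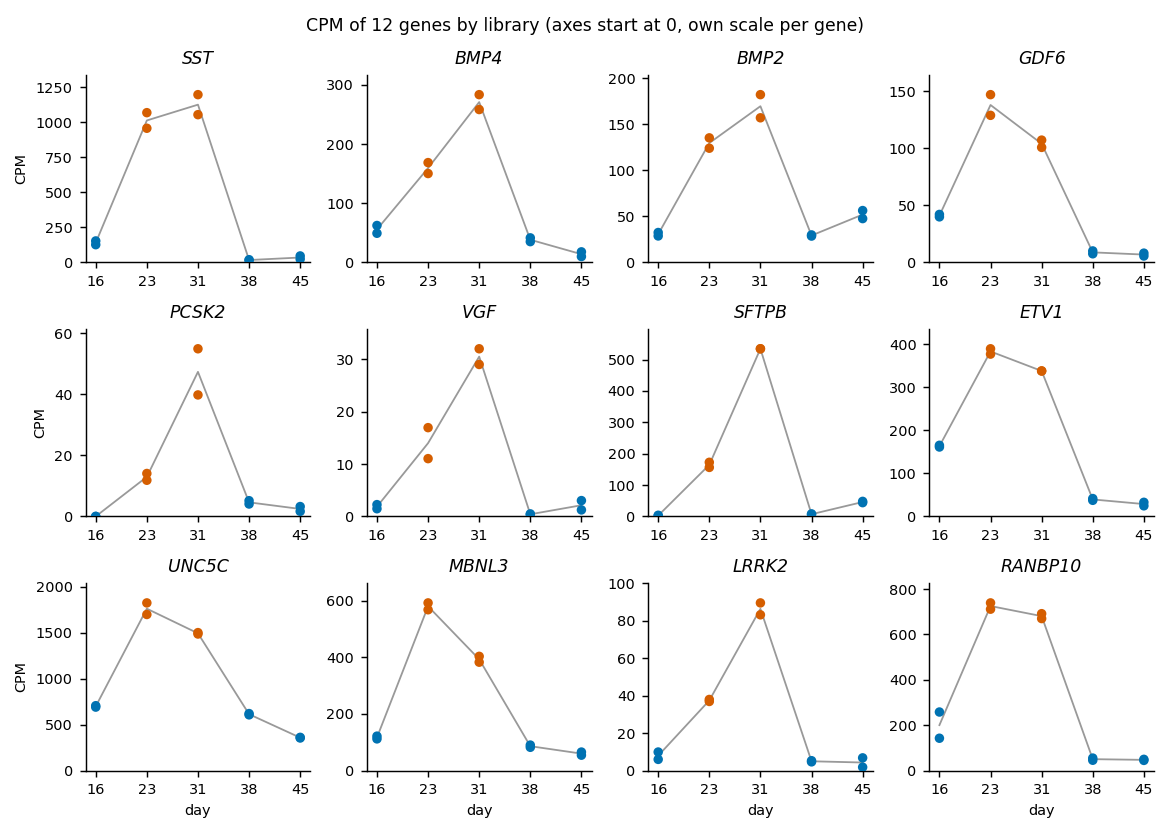
CPM of 12 of the genes (own linear axis from 0 for each) by day, 1 point per library (orange, days 23 and 31; blue, the other days), with a line through the mean of each day. SFTPB, PCSK2, LRRK2 and BMP4 peaked on day 31, while MBNL3 was higher on day 23 and the days overlapped for SST.

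Receptors and other surface proteins numbered 11. UNC5C had 689 and 705 CPM on day 16, 1822 and 1696 on day 23, 1499 and 1484 on day 31, 605 and 619 on day 38, and 354 and 361 on day 45. CYSLTR2, a receptor for cysteinyl leukotrienes, had 112 and 123 CPM on day 16, 358 and 311 on day 23, 260 and 250 on day 31, 20.3 and 23.4 on day 38, and 18.2 and 23.04 on day 45. CD44, the hyaluronan receptor, had 179 and 181, 395 and 371, 455 and 435, 103 and 120, and 76.0 and 78.1 CPM in the same order. All 3 kept a clear level on day 16, between 39.8 and 43.5% of their window mean. HRH2, the histamine H2 receptor, was near the floor on day 16 at 0.662 and 1.59 CPM, then had 18.002 and 28.1 on day 23, 32.4 and 31.2 on day 31, 1.06 and 0.877 on day 38, and 0.966 and 6.36 on day 45. The other 7 were CNTNAP5, PCDH19, TMEFF2, LRRN4, QRFPR, MAG and GLDN, most of them adhesion or cell contact proteins, with window means from 6.95 CPM for MAG to 80.2 CPM for PCDH19.

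Signalling and cytoplasmic proteins were the largest group, with 21 genes. KLHL24, which couples substrates to a ubiquitin ligase, had 373 and 401 CPM on day 16, 839 and 826 on day 23, 1089 and 931 on day 31, 290 and 348 on day 38, and 243 and 281 on day 45. RANBP10, a Ran-binding protein, had 258 and 142 CPM on day 16, 739 and 711 on day 23, 692 and 670 on day 31, 45.4 and 54.9 on day 38, and 49.4 and 44.7 on day 45. Its day 16 libraries differed from each other more than those of any other day. RANBP10 (chr16:67723070-67806560) and GFOD2 (chr16:67674536-67719316), an oxidoreductase-like gene, are neighbours 3753 bases apart on the minus strand and both are among the 60. GFOD2 had 61.1 and 76.5, 166 and 189, 171 and 184, 38.4 and 36.3, and 22.9 and 41.5 CPM over the 5 days. The 13 other counted genes within 100 kb of the pair had ratios of at most 1.03.

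LRRK2, a large protein kinase, had 5.96 and 9.89 CPM on day 16, 37.98 and 36.9 on day 23, 89.6 and 83.2 on day 31, 4.64 and 5.26 on day 38, and 1.79 and 6.78 on day 45. CAVIN2, a caveolar coat protein, had 4.77 and 7.94, 67.1 and 75.9, 155 and 131, 11.6 and 9.43, and 21.8 and 9.07 CPM. Both stood higher on day 31 than on day 23 without overlap. ARHGAP15, a GTPase-activating protein for Rac, had 1.19 and 0.489 CPM on day 16, 11.5 and 9.02 on day 23, 34.0 and 35.8 on day 31, 0.0968 and 1.53 on day 38, and 0.414 and 1.15 on day 45. ANKRD66 had 0 counts in both day 16 libraries and at most 4 counts in any later outside library, with 5.23 to 14.9 CPM in the window. FRMD3 had 64.2 to 140 CPM in the window and 9.67 to 20.3 outside, FILIP1, a filamin-interacting protein, 86.0 to 130 and 21.9 to 38.5, and KCNAB1, a potassium channel subunit, 147 to 181 and 43.3 to 69.7. SAMD5, UBXN10, SHC3, BCL2L14, DACT2 and MCTP1 had window means of 8.59 to 46.3 CPM. IQCJ had 9.42 to 17.4 CPM in the window, but it shares 13.8% of its exon bases with the readthrough gene IQCJ-SCHIP1, which is listed at 0 in all 10 libraries, so reads of the 2 may be split uncertainly. DNAJB7, a heat shock cochaperone at 5.92 to 7.56 CPM in the window, shares 23.9% of its exon bases with XPNPEP3 on the other strand and is uncertain since the strand setting of the counting is not given in the sources used here.

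Among 5 nuclear proteins, MBNL3, a splicing regulator, had 121 and 112 CPM on day 16, 592 and 568 on day 23, 403 and 383 on day 31, 82.1 and 89.9 on day 38, and 65.3 and 54.2 on day 45. ETV1, an ETS transcription factor and a known target of FGF and ERK signalling, had 161 and 165 CPM on day 16, 377 and 389 on day 23, 337 and 338 on day 31, 37.4 and 41.4 on day 38, and 24.6 and 32.7 on day 45. ETV1 kept the largest share on day 16 of all 60, 45.3%. IKZF1, a transcription factor best known from lymphocytes, had 34.6 to 41.0 CPM in the window and 4.45 to 12.4 CPM outside. Its neighbours in the group were BRD8, a bromodomain protein, at 130 to 147 CPM in the window, and MEI4, a meiotic protein, at 17.6 to 24.3.

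Enzymes and lumenal or plasma proteins made up 7 of the genes. SFTPB, the surfactant protein B of lung, had 3.71 and 1.47 CPM on day 16, 173 and 156 on day 23, 535 and 535 on day 31, 5.90 and 8.11 on day 38, and 43.9 and 48.0 on day 45. The 18 other lung and airway markers summed to 83.7 and 54.0 CPM on day 16, 99.9985 and 105.5 on day 23, 198 and 212 on day 31, 181 and 172 on day 38, and 245 and 189 on day 45. Their most counted gene was ABCA3. SFTPC was at 0 in 9 libraries and at 0.0968 CPM in the other, and SCGB1A1 never passed 1.49 CPM. The part of lung cells in the SFTPB level was not tested. MPPED2, a metallophosphoesterase, had 182 and 212 CPM on day 16, 476 and 475 on day 23, 536 and 529 on day 31, 56.4 and 58.3 on day 38, and 31.9 and 29.7 on day 45.

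C8B, a chain of complement component 8, had the largest ratio. It had 195 and 154 counts on day 23 and 121 and 120 on day 31, against 0 and 6 on day 16, 1 and 0 on day 38, and 0 and 0 on day 45. JCHAIN, the joining chain of secreted immunoglobulins, had 3.18 and 3.18 CPM on day 16, 23.1 and 21.0 on day 23, 7.13 and 6.45 on day 31, 0.968 and 0 on day 38, and 1.10 and 1.77 on day 45. The 13 blood and immune markers summed to 33.8 and 17.2 CPM on day 16, 4.76 and 8.54 on day 23, 19.7 and 19.2 on day 31, 17.03 and 11.8 on day 38, and 50.6 and 51.8 on day 45, with CD68 the most counted. PTPRC, the pan-leukocyte marker, had 8.48 and 2.08 CPM on day 16 and 0 to 0.744 CPM in the 4 window libraries, and CD3E was at 0 in all 10. The part of blood cells in IKZF1 and JCHAIN was not tested. NQO1, a quinone reductase, had 39.3 to 49.7 CPM in the window and 7.82 to 17.9 outside, and RNLS, the renalase gene, 27.9 to 31.5 and 5.93 to 11.6. SEC14L6, a lipid-binding protein, completed the group with 7.56 to 11.1 CPM in the window.

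Noncoding RNA genes numbered 7, and besides MIR31 and its host these were LINC02006, LOC101927018, LRRTM4-AS1, LINC01089 and FAM41C. LINC02006 had 2.25 and 4.89 CPM on day 16, 25.7 and 28.1 on day 23, 24.9 and 30.5 on day 31, 0.677 and 2.52 on day 38, and 1.24 and 4.80 on day 45. LINC01089 shares 41.7% of its exon bases with RHOF on the same strand and is uncertain, at 45.2 to 50.5 CPM in the window and 9.38 to 21.9 outside. By RefSeq, 53 of the 60 genes are protein coding (88.3%, beside 94.9% of the 11195 matched genes that reach 5 CPM in the window) and 6 are lncRNA genes (10.0%, beside 2.92%). They lie on 21 chromosomes, with at most 6 on 1.

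Day 31 against day 23 shows how the genes moved inside the window, a comparison the rule did not make. edgeR's quasi-likelihood test over 21014 genes, with Benjamini-Hochberg adjustment, called 5 of the 60 higher on day 31 (8.33%), where 1.58% of all genes tested were called higher. It called 2 lower (3.33%), where 0.666% of all genes tested were called lower. Among the 11464 genes that reach 5 CPM in the window, 1.84% were called higher and 1.04% lower. The other 53 genes were not called, and 20 of the 60 (33.3%) had an unadjusted p under 0.05, beside 11.4% of all genes tested and 12.9% of those that reach 5 CPM in the window. The median log2 fold change of the 60 was 0.12. Without a test, 25 genes (41.7%) were higher in both day 31 libraries than in both of day 23, beside 21.7% of all genes tested, 16 (26.7%) were lower, beside 17.4%, and 19 overlapped. Among genes that reach 5 CPM in the window these shares were 23.2% and 21.7%.

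SFTPB rose by 1.68 on the log2 scale (SE 0.16, adjusted p = 1.24e-08), PCSK2 by 1.84 (SE 0.40, adjusted p = 0.00575) and LRRK2 by 1.18 (SE 0.32, adjusted p = 0.0378). CAVIN2 rose by 0.98 (SE 0.26, adjusted p = 0.0335) and BMP4 by 0.74 (SE 0.18, adjusted p = 0.0139). PCLO, a scaffold of presynaptic terminals with 342 and 295 CPM on day 23 and 199 and 203 on day 31, fell by 0.69 (SE 0.14, adjusted p = 0.0031). MBNL3 fell by 0.59 (SE 0.13, adjusted p = 0.00625). The calls of CAVIN2 and LRRK2 were lost with DESeq2 and with edgeR's own low-count filter, filterByExpr. The spread is thin with 2 libraries a day. SFTPB was called in all 10 fits that left out 1 library, and the calls of BMP4, CAVIN2, LRRK2 and MBNL3 were lost whenever any one library of day 23 or day 31 was left out. Without day 23 replicate 1 or without day 31 replicate 1, SFTPB was the only gene of the 60 called, while without day 23 replicate 2 PCLO was called as well, and without day 31 replicate 2 PCSK2 and PCLO were.

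ARHGAP15 (1.74, SE 0.54, adjusted p = 0.0919) and JCHAIN (-1.72, SE 0.62, adjusted p = 0.177) had log2 fold changes as large but did not pass the test. SST differed by 0.13 (SE 0.17, adjusted p = 0.861). 6 of 14 tested liver and gut markers were also called higher on day 31, where 1.58% of all genes tested were. Their summed CPM went from 61.9 and 59.99 on day 23 to 291 and 278 on day 31. Of the lung and airway markers other than SFTPB, 2 of 16 tested were called higher, beside the same 1.58%. The part of either cell type in the 5 genes that rose was not tested.

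**Figure D3:**
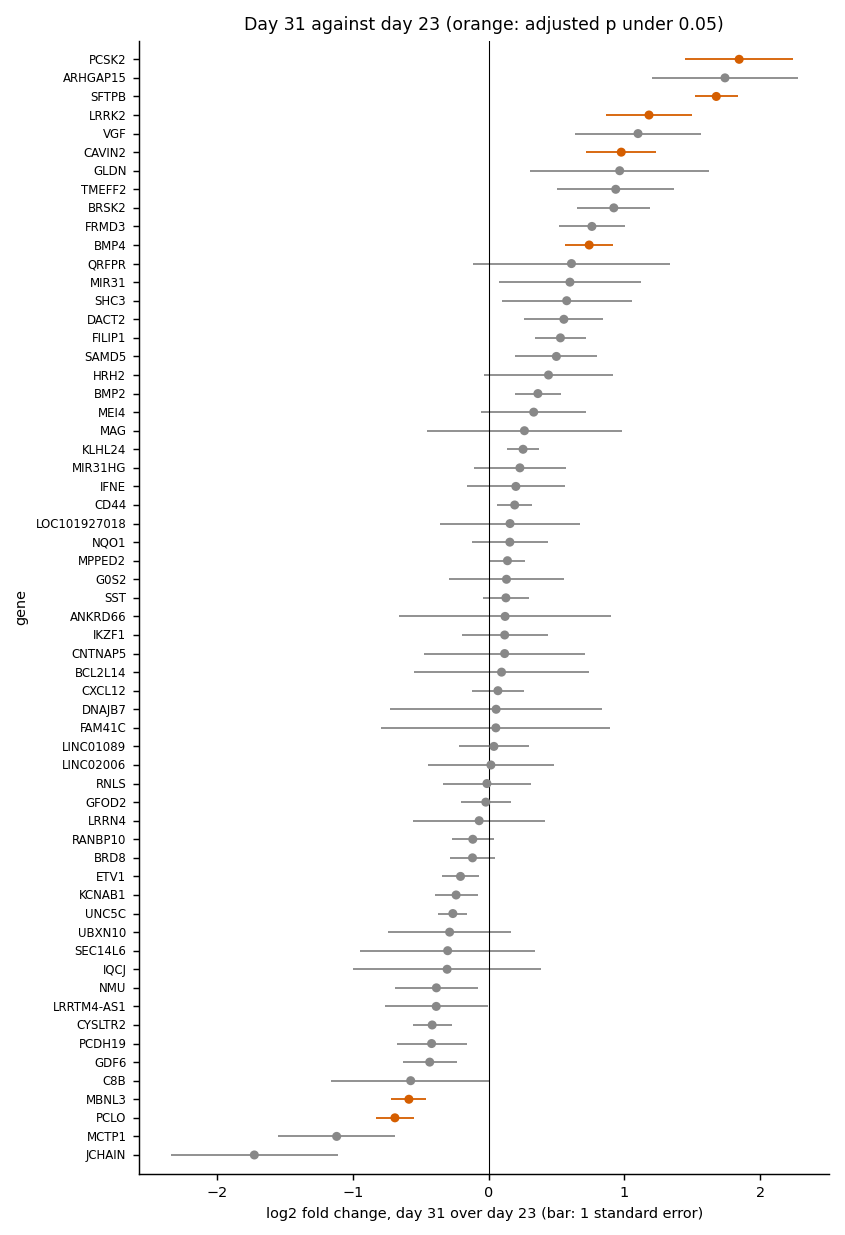
Log2 fold change of day 31 over day 23 for each of the 60 genes, from edgeR's fit of all 10 libraries, with bars of 1 standard error. The 7 genes in orange passed an adjusted p of 0.05, from MBNL3 at -0.59 and PCLO at -0.69 to SFTPB at 1.68 and PCSK2 at 1.84.

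Days 38 and 45 against day 16 ask whether the genes came back to where they started. Both comparisons share the day 16 libraries. The rule set an upper limit on the libraries of days 16, 38 and 45, so the shares called here depend in part on it. The limit weighed most on day 16. The rule found 251 genes without the day 16 libraries, 82 without those of day 38 and 79 without those of day 45. On day 38, 13 of the 60 were called lower than on day 16 (21.7%), where 6.48% of all genes tested were called lower, and 6 were called higher (10.0%), where 9.84% were called higher. On day 45, 17 were called lower (28.3%), where 11.7% of all genes were, and 9 higher (15.0%), where 12.9% were. Among genes that reach 5 CPM in the window the shares called lower were 9.93% and 18.1%, and those called higher 13.7% and 17.1%. The median log2 fold change of the 60 was -0.03 on day 38 and -0.36 on day 45, beside 0 for all genes tested in both. On day 38, 41 genes were not called and on day 45, 34. The 13 lower on day 38 became 8 without day 38 replicate 2.

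Genes that fell below their day 16 level included both ligands and receptors. On day 38, NMU fell by 3.14 on the log2 scale (SE 0.39, adjusted p = 1.15e-07), SST by 2.96 (SE 0.20, adjusted p = 8.57e-14), CYSLTR2 by 2.28 (SE 0.16, adjusted p = 2.18e-13) and JCHAIN by 2.47 (SE 0.77, adjusted p = 0.0215). The call of JCHAIN rests on single libraries, with -2.43 without day 16 replicate 2 (adjusted p = 0.052) and -1.52 without day 38 replicate 2 (adjusted p = 0.315). On day 45, NMU was no longer called (-0.45, SE 0.33, adjusted p = 0.359), while SST was still 1.95 lower (SE 0.19, adjusted p = 3.62e-10) and CYSLTR2 2.41 lower (SE 0.16, adjusted p = 5.04e-14). MPPED2 fell by 2.58 from day 16 to day 45 (SE 0.14, adjusted p = 2.76e-16), GDF6 by 2.48 (SE 0.24, adjusted p = 2.36e-10), ETV1 by 2.41 (SE 0.15, adjusted p = 9.65e-15) and BMP4 by 1.95 (SE 0.20, adjusted p = 2.06e-09). SEC14L6 had 28 and 22 counts on day 16 and 0 and 1 on day 45 (adjusted p = 0.000189), too few for a fold. UNC5C ended 0.87 below day 16 on day 45 (SE 0.11, adjusted p = 7.57e-08), CD44 1.13 below (SE 0.13, adjusted p = 2.31e-08) and RANBP10 1.98 below (SE 0.17, adjusted p = 1.06e-11). VGF was called lower on day 38 (-1.99, SE 0.68, adjusted p = 0.0396), but not without day 16 replicate 1 (-1.70, adjusted p = 0.19), either library of day 31 or either of day 38.

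PCSK2 and SFTPB ended above their day 16 level. PCSK2 was at least 12.1-fold higher on day 38 and at least 6.399-fold higher on day 45 than the day 16 floor (adjusted p = 1.24e-07 and 4.21e-06). SFTPB was higher by 1.59 on day 38 (SE 0.28, adjusted p = 4.07e-05) and by 4.26 on day 45 (SE 0.24, adjusted p = 2.49e-16). Without day 16 replicate 1 these became 2.34 and 5.005, and without day 16 replicate 2 they became 1.09 and 3.76. The day 38 call was lost in a fit of only the 4 libraries compared (1.58). BRSK2, a neuronal protein kinase, had 2.38 and 3.42 CPM on day 16, 40.8 and 35.8 on day 23, 84.2 and 63.5 on day 31, 11.3 and 12.9 on day 38, and 12.1 and 10.6 on day 45. It was higher than day 16 by 2.19 on day 38 (SE 0.33, adjusted p = 4.58e-06) and by 2.05 on day 45 (SE 0.33, adjusted p = 1.04e-05). G0S2, an inhibitor of adipose triglyceride lipase, had 2 and 7 counts on day 16, 174 to 229 in the window libraries and 56 and 69 on day 45, which was 3.77 higher (SE 0.58, adjusted p = 4.11e-06). This became 3.15 without day 16 replicate 1 and 4.87 without day 16 replicate 2. BMP2 was higher on day 45 by 0.86 (SE 0.18, adjusted p = 0.000308). DNAJB7 had 3 and 0 counts on day 16, 24 and 25 on day 38 and 14 and 17 on day 45, and was called on both days (adjusted p = 0.00951 and 0.0202). Its calls were lost without day 16 replicate 2, at 2.81 on day 38 (adjusted p = 0.103) and 2.31 on day 45 (adjusted p = 0.166). HRH2 was called higher on day 45 (1.80, SE 0.62, adjusted p = 0.0286) on the strength of day 45 replicate 2, without which the value was -0.14 (adjusted p = 0.942), and was not called without day 16 replicate 1 (1.29, adjusted p = 0.228) or either library of day 31. CAVIN2 was also called higher on day 45 (1.34, SE 0.31, adjusted p = 0.00123), with 0.59 without day 45 replicate 1 (adjusted p = 0.228). With each of the 10 libraries left out in turn, the call of PCLO on day 45 was kept in 1 fit, that of LINC01089 on day 38 in 2 and that of LRRTM4-AS1 on day 38 in 3. The calls of NQO1 on day 45 and KCNAB1 on day 38 were kept in 7 fits, those of IFNE on day 45 and of FILIP1 and GFOD2 on day 38 in 8, and those of KLHL24 and LINC01089 on day 45 and CD44 on day 38 in 9. In the 7 alternatives other than left-out libraries, the calls of KCNAB1 and LINC01089 on day 38 were kept in 4. That of NQO1 on day 45 was kept in 5.

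**Figure D4:**
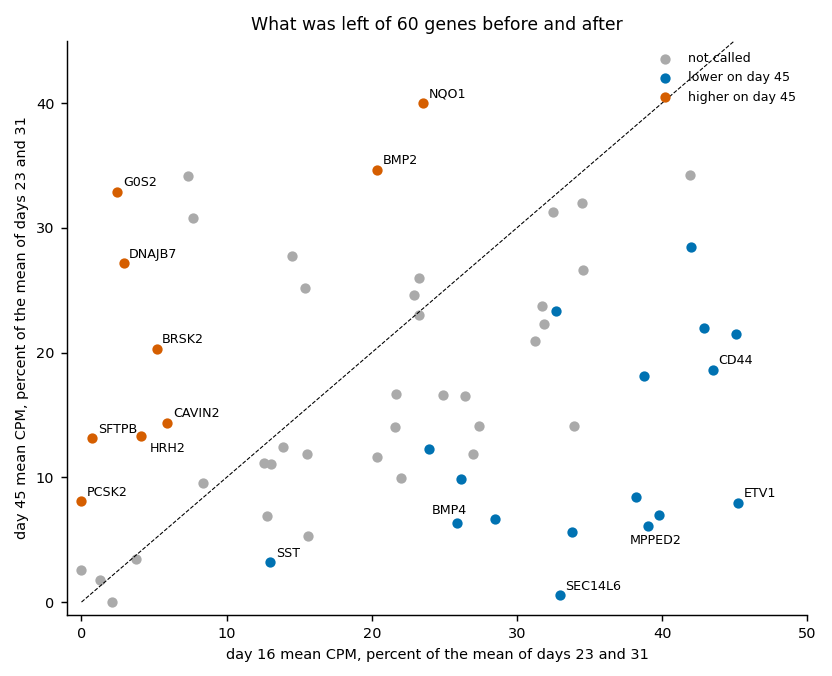
Mean CPM on day 45 against mean CPM on day 16, each as percent of the gene's mean over days 23 and 31, with 1 point per gene and a dashed line of equal values. The 17 genes called lower on day 45 (blue) lie right of the line and the 9 called higher (orange) left of it, with SEC14L6 near the bottom and PCSK2 at 0% on day 16.

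The name of the window comes from the medium, and a list of known cAMP target genes was set beside the 60. Of its 51 genes, 1 is among them, SST. Of all genes in the counts 0.212% are, and of those that reach 5 CPM in the window 0.523%. Of the other 44 tested cAMP targets, which the rule did not pick, 5 were called higher on day 23 than on day 16 and 9 lower, where 5.6% of all genes tested were called higher and 5.33% lower. From day 31 to day 38, 11 were called higher and 6 lower, where 8.8% of all genes tested were called higher and 6.23% lower. The 5 higher on day 23 became 3 without day 23 replicate 2 and 3 with only the 4 libraries compared. The 11 higher on day 38 became 7 without day 31 replicate 1 or without day 38 replicate 1, and the 6 lower became 10 with library size alone and 3 at a log2 fold change of at least 1. Of these 44, from which the rule had taken SST for its rise and fall, CITED2, a transcriptional coregulator, was the 1 called higher and then lower (2.27%), beside 1.57% of the 20954 genes tested that are not among the 60. It had 209 and 170 CPM on day 16, 362 and 375 on day 23, 470 and 400 on day 31, 280 and 257 on day 38, and 265 and 296 on day 45. The phosphodiesterase gene PDE4D rose by 1.503 from day 16 to day 23 (SE 0.13, adjusted p = 2.11e-10), whereas the orphan nuclear receptor genes NR4A1 and NR4A3 fell by 1.19 (SE 0.16, adjusted p = 2.3e-06) and 2.94 (SE 0.18, adjusted p = 8.03e-14). Of 32 tested components of cAMP signalling, none of them among the 60, 2 were called higher and 1 lower on day 23, and 7 higher and 3 lower on day 38.

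BMP2, BMP4 and GDF6 belong to a list of 48 TGF-beta and BMP genes. Of all genes in the counts, 0.212% are among the 60. Of the other 45 genes on the list, 4 were called higher and 6 lower on day 23 than on day 16, beside 5.6% and 5.33% of all genes tested. On day 38, 7 were called higher and 11 lower than on day 31, beside 8.8% and 6.23% of all genes tested. GREM1, a secreted BMP antagonist, and TGFBR2, a TGFβ receptor, were called higher and then lower, 2 of 45 (4.44%) beside the same 1.57%. Across all the lists compared, this share ran from 0, as for the thyroid genes, to 14.3% for the liver and gut markers (APOB and TTR). GREM1 had 53.2 and 42.6 CPM on day 16, 110 and 97.7 on day 23, 122 and 124 on day 31, 9.97 and 12.2 on day 38, and 9.52 and 17.0 on day 45, so its day 16 level kept it outside the rule. BMP7, another ligand, went the other way, and fell by 2.19 from day 16 to day 23 (adjusted p = 2.15e-06) and rose by 2.42 from day 31 to day 38 (adjusted p = 6.73e-08). NOG, the BMP antagonist noggin, fell by 2.31 from day 16 to day 23 (adjusted p = 0.00486).

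Of the 21 lists compared, 5 held members of the 60, and besides the cAMP and BMP lists these were the FGF and ERK list (ETV1, 1 of 36), the lung and airway markers (SFTPB, 1 of 19) and the neuroendocrine markers (PCSK2, 1 of 13). The other 16 held 0, among them the 22 thyroid genes, 31 neural, 16 mesenchymal and 42 cell cycle genes. Of all genes in the counts 0.212% are among the 60, so 0 on lists this short tells nothing of the kind of genes. Several of these lists moved at the step where the 60 genes fell, at which 8.8% of all genes tested were called higher and 6.23% lower. From day 31 to day 38 the mesenchymal markers went from a sum of 2736 and 3123 CPM to 6173 and 6440, with 7 of 15 tested called higher and 2 lower and VIM the most counted in the window. The 16 striated muscle markers, led by RYR2, went from 101 and 115 CPM to 426 and 443, with 6 of 14 tested called higher and 0 lower. The 30 HOX genes, led by HOXA3, went from 181 and 193 CPM to 9.10 and 10.4, with 10 of 20 tested called lower and 0 higher. The 10 pluripotency markers, led by DPPA4, went from 283 and 227 CPM to 73.6 and 74.9, with 5 of 8 tested called lower and 0 higher. The 16 liver and gut markers, led by AFP, went from 291 and 278 CPM to 181 and 105. Of 14 tested, 4 were called lower and 1 higher. The part of these cells or states in the fall of the 60 genes was not tested. None of the 21 tested thyroid genes was called higher on day 23 and lower on day 38, where 1.57% of genes outside the 60 were. At that share, 0 of 21 cannot tell the thyroid genes from other genes. Of the same 21, 9 were called higher on day 38 than on day 31, beside 8.8% of all genes tested. SST is also a marker of forebrain interneurons, which express NKX2-1 in development. LHX6, a transcription factor of these neurons, was at 0 to 1.47 CPM in all 10 libraries and GAD2, an enzyme of GABA synthesis, at 0 to 0.414. The 31 neural markers summed to 205 and 187 CPM on day 16, 202 and 226 on day 23, 278 and 293 on day 31, 229 and 254 on day 38, and 171 and 172 on day 45, with MAP2 the most counted. Of 29 tested, 1 was called higher and 1 lower on day 23 than on day 16, beside 5.6% and 5.33% of all genes tested. The part of neural cells in the SST level was not tested.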

How the data were processed

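The authors used Trimmomatic for trimming, HISAT2 for alignment to GRCh38 and HTSeq for counting per gene with the Ensembl annotation of GRCh38.p13. The counts as deposited by the authors are raw whole numbers for 28265 gene symbols in 10 libraries. Tool versions and the strand setting are not given in the sources used here. Days and replicates came from the labels, with 2 biological replicates a day. The p-values rest on the spread between the pooled cultures of a day, taken over all 10 libraries and in part shared across genes. Replicate counts differed by more than sampling noise (chi-square per degree of freedom 8.38 to 13.7).

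CPM used summed counts. The 21014 genes that reached 5 counts in 2 or more libraries entered edgeR 4.0.16 in R 4.3.3 (glmQLFit, TMM, 1 mean per day, 10 libraries, 5 residual degrees of freedom, Benjamini-Hochberg, threshold 0.05). Approximate standard errors divide the size of each log2 fold change by the root of its F value. Folds against days at 0 counts use a floor of 3 counts per library. DESeq2 1.42.0, other scalings, filters and left-out libraries were alternatives. The procedure was tested on simulated data.

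The 60 genes, the gene lists and the roles were chosen with earlier results of these data known. Named were those of the 60 on a list, the 10 highest by CPM, the 10 largest and 3 smallest ratios, 3 genes just outside, and the most changed called genes (5 a direction for day 31 against day 23, 4 for the other comparisons). The other genes named were chosen after their values were seen. They are those of the role groups, of the 2 neighbouring loci, and the list genes outside the 60. Positions and promoters are RefSeq's on GRCh38.p14, whose chromosome coordinates match GRCh38.p13. All 60 symbols were found there.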

Additional observations from a re-analysis of the deposited data

How the results depend on the processing

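The number of genes found by the rule, 60, was 39 with TMM-scaled library sizes, 13 with a ratio of 3, 134 with a ratio of 1.5 and 134 with daily means. It was 251 without the day 16 libraries, 149 without those of day 23 and 96 without those of day 31, which like the 53 genes without RN7SK were added after seeing the data, and 61 to 78 with 1 library left out. For day 31 against day 23, the 5 genes called higher became 8 with no low-count filter, 3 with filterByExpr, 8 with only the 4 libraries compared and 3 at a log2 fold change of at least 1, and the 2 called lower became 5 with only the 4 libraries and 0 at a log2 fold change of at least 1. Leaving out 1 library gave 1 to 8 higher and 0 to 2 lower. For day 38 against day 16, the 6 called higher became 3 with only the 4 libraries, and the 13 called lower ran from 8 to 13 with 1 library left out. For day 45 against day 16, the 9 called higher became 5 with only the 4 libraries and the 17 called lower became 11 at a log2 fold change of at least 1. For the cAMP targets, the 5 higher on day 23 became 3 with only the 4 libraries (3 to 6 with 1 library left out), the 6 lower on day 38 became 10 with library size alone and 3 at a log2 fold change of at least 1, and the 11 higher on day 38 ran from 7 to 12 with 1 library left out. Of 884 alternative values for 52 fold changes of called genes, 788 kept direction and call, 95 kept the direction without the call, and 1 changed sign (HRH2, day 45 against day 16, -0.14 without day 45 replicate 2, within a range of -0.14 to 2.62 over left-out libraries). The causes were not tested.

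With library size alone, the median over all genes tested moved to a log2 fold change of -0.15 on day 38 and -0.09 on day 45 against day 16, and to -0.20 for day 38 against day 31. Replicate numbers did not pair the libraries, since the 10 correlations between days of replicate 1's deviations ran from -0.032 to 0.020. With the replicate block, 8 genes rather than 5 were called higher on day 31 than on day 23. Depth limits the genes near 5 CPM most, where a library holds few counts.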
